A study of Mus musculus with 3 samples.

Results

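Tympanic border cells are the mesenchymal cells that line the scala tympani side of the basilar membrane, directly beneath the organ of Corti. In these data they were taken as the cell barcodes that passed limits of 200 to 6000 genes and at most 15% mitochondrial UMIs (unique molecular identifiers, one per captured transcript) and that held a UMI of at least 3 of the 6 genes *Emilin2*, *Rarres1*, *Notum*, *Otor*, *Kcnk3* and *Dmgdh*. A total of 1721 of the 14378 barcodes within the limits met this rule. They numbered 70 of 1662 in the P14 library (4.21%, 95% exact binomial interval 3.30 to 5.29), 705 of 5651 in P28 replicate 1 (12.5%, 11.6 to 13.4) and 946 of 7065 in P28 replicate 2 (13.4%, 12.6 to 14.2). The intervals cover counting error only. With 1 library at P14, the shares of the ages were not tested.

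The study profiled dissociated cochleae of C57/B6 mice on the 10x Genomics platform, to follow cochlear cell types from a juvenile to a mature age once the temporal bone has calcified. Each of the 3 libraries pooled 14 ears of 7 mice, 1 library at postnatal day 14 (P14) and 2 at postnatal day 28 (P28). The labels name no mutant, treatment or sort, and the sex of the mice in each pool was not stated. The tympanic border cells held 266730 UMIs at P14 and 4384482 and 4683257 in the P28 libraries, so a level at P14 is far less precise than one at P28. The median tympanic border cell had 2524.5 UMIs at P14 and 3838 and 3377.5 at P28. The medians of the other barcodes were 2458, 2315 and 1919.

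As background, tympanic border cells keep dividing slowly for some time after birth, respond to Wnt signalling and lay down matrix under the basilar membrane. Wnt proteins bind Frizzled receptors and LRP co-receptors, stabilise beta-catenin and let TCF and LEF factors switch on target genes. Several of these targets, among them *Notum*, *Axin2* and *Nkd1*, encode proteins that damp the same pathway. *Emilin2* encodes a glycoprotein of elastic fibres and has served as a marker of these cells.

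Several measurements of the libraries stand beside all results. Between libraries, 10 barcodes were shared by P14 and P28 replicate 1, 20 by P14 and P28 replicate 2, and 54 by the P28 replicates, and 0 of them were tympanic border cells in both libraries. *Xist*, the RNA that silences one X chromosome in female cells, was at 570 CPM (UMIs of a gene per 1000000 UMIs of its cell class) in tympanic border cells at P14 but at 0.228 and 0.641 CPM at P28. The Y-linked gene *Ddx3y* was at 56.2, 101 and 110 CPM in the same order. The P14 library therefore held cells of both sexes and the P28 libraries almost only male cells, so sex and age cannot be told apart. Some barcodes also held at least 3 markers of a hair cell, neuron, glial, macrophage, B cell, granulocyte or erythroid list, which applied to 14 tympanic border cells at P14 and to 79 and 103 at P28. With the endothelial list counted too, the numbers were 15, 139 and 170. Results that rested on these mixed barcodes are named where they occur.

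The 6 genes that chose the cells are given as a description, with no test. *Emilin2* was at 12811 CPM at P14 and at 3180 and 3373 CPM in the P28 replicates, against 69.8, 153 and 218 CPM in the other barcodes. *Otor*, which encodes otoraplin, a small secreted protein of cochlear mesenchyme, was at 5350, 2531 and 2415 CPM, against 32.5, 102 and 116 CPM. *Rarres1*, a retinoic acid responsive gene, was at 4431, 213 and 217 CPM, against 5.86, 3.07 and 2.74 CPM. All 3 genes were higher at P14 than in both P28 replicates, which lay close together. *Kcnk3*, a two-pore potassium channel, was at 634, 158 and 171 CPM. *Dmgdh*, a mitochondrial dimethylglycine dehydrogenase, was at 259, 126 and 130 CPM. *Notum*, a carboxylesterase that inactivates Wnt proteins by removing their lipid, differed from both in holding the same level at each age, at 360, 346 and 351 CPM.

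**Figure D1:**
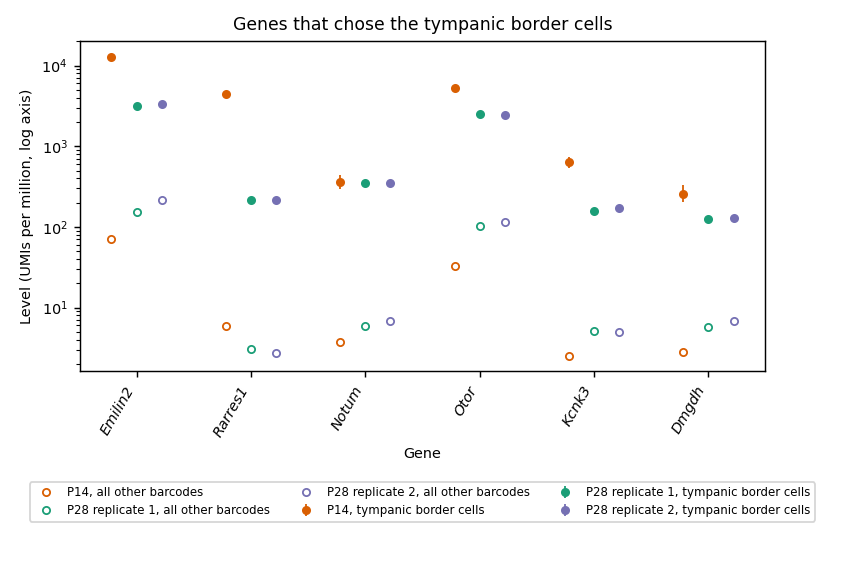
Levels of the 6 genes that chose the tympanic border cells, in CPM on a log axis. Filled points are tympanic border cells with 95% exact Poisson intervals and open points all other barcodes, by library. *Rarres1* was at 4431 CPM at P14 and at 213 and 217 CPM at P28, while *Notum* was at 346 to 360 CPM in every library.

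The genes sit on different chromosomes (GRCm38, GENCODE M21). *Emilin2* lies on chromosome 17 from 71252172 to 71311978, *Rarres1* on chromosome 3 from 67478972 to 67515523 and *Notum* on chromosome 11 from 120653788 to 120661175, all on the minus strand. *Otor* lies on chromosome 2 from 143078473 to 143081713, *Kcnk3* on chromosome 5 from 30588170 to 30625271 and *Dmgdh* on chromosome 13 from 93674433 to 93752833, all on the plus strand.

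Most tympanic border cells were carried by a few of the 6 genes. *Emilin2* was found in 100%, 99.6% and 99.8% of them by library, and *Otor* in 95.7%, 97.4% and 98.6%. *Dmgdh* was found in 40.0%, 41.1% and 39.2%. When each barcode was thinned to 1000 UMIs, *Emilin2* was found in 98.3%, 90.2% and 89.8% of tympanic border cells and in 8.72%, 15.4% and 17.6% of the other barcodes. How much of the latter was free RNA was not tested. At the threshold, 22 cells at P14, 312 in P28 replicate 1 and 447 in P28 replicate 2 held exactly 3 of the genes, and 74, 503 and 608 barcodes just outside held 2. Depth moved with this number, since cells with 3 genes had medians of 1694.5, 1988.5 and 2212 UMIs and cells with all 6 had medians of 7245.5, 14927.5 and 10038 UMIs.

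Genes that were not used in the choice also stepped up across the threshold, which is given with no test. *Fn1* was at 84.5, 292 and 360 CPM in barcodes with 2 of the genes and at 644, 757 and 955 CPM in cells with 3. *Emcn* went from 485, 1246 and 1282 CPM to 1755, 2487 and 2395 CPM. *Nkd1* went from 65.7, 152 and 170 CPM to 156, 225 and 285 CPM. The barcodes with 2 genes lay between the cells with 3 and the barcodes with 1 for *Fn1* and *Emcn* in every library, so the threshold cut through a range rather than a gap.

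**Figure D2:**
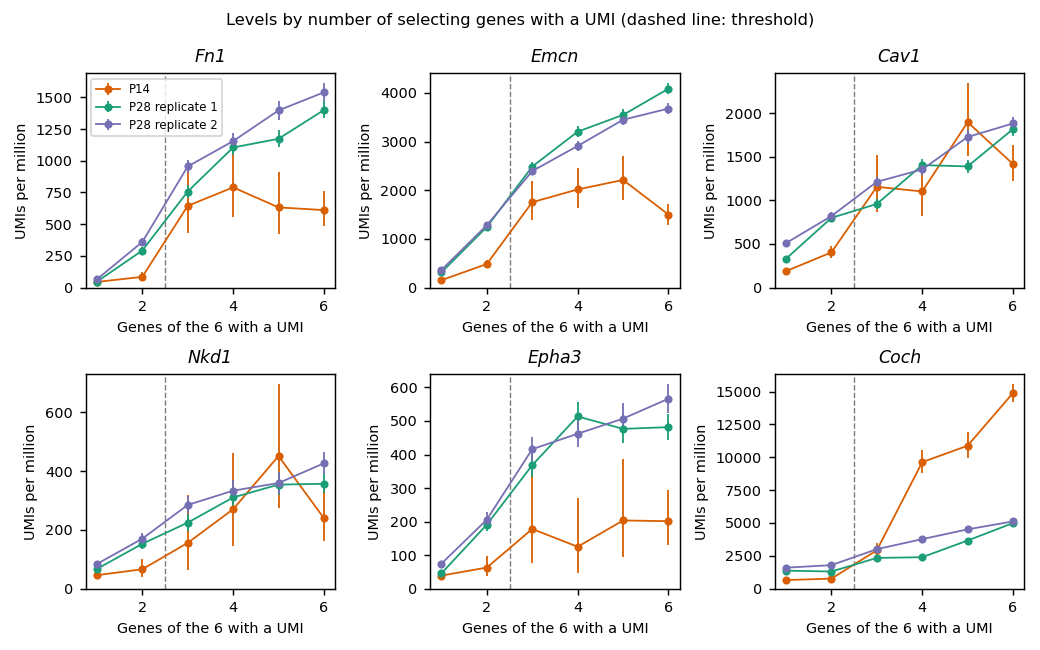
Level of 6 genes in CPM against the number of selecting genes with a UMI in the barcode, with 95% exact Poisson intervals, by library. The dashed line marks the threshold between 2 and 3 genes. *Emcn* was at 1246 and 1282 CPM just outside it and at 2487 and 2395 CPM just inside it in the P28 replicates.

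Marker lists of other cell types were checked in the selected cells. The spiral ganglion neuron list (*Snap25*, *Nefh* and 4 more genes) summed to 3.75 CPM at P14 and to 43.3 and 213 CPM at P28, against 65.6, 2532 and 2463 CPM in the other barcodes. The macrophage list summed to 3.75, 55.7 and 83.9 CPM, against 761, 522 and 398 CPM. The outer hair cell list summed to 131, 452 and 255 CPM, with *Ocm* the most abundant at P28, against 10008, 2934 and 1840 CPM. These lists were low but not at 0 in the P28 cells, and 5 of the 6 neuron and 5 of the 6 macrophage markers were at 0 at P14. At P14 some lists summed higher than in the other barcodes. They were the endothelial list (1886 against 123 CPM), the collagen I fibroblast list (3535 against 2100 CPM) and the spiral fibrocyte list (11543.5 against 1559 CPM). The list of *Abcc9*, *Moxd1*, *Cemip* and *Kcnj8* was at 682 against 136 CPM. The endothelial, spiral fibrocyte and *Abcc9* lists were also higher in both P28 libraries. There they were at 3549 and 3264 against 272 and 311 CPM, 3848 and 4868 against 2402 and 3180 CPM, and 440 and 458 against 125 and 151 CPM. The collagen I and erythroid lists were lower than in the other barcodes at P28. At P14 the erythroid list of haemoglobin genes and *Alas2* was higher, at 53342 CPM in tympanic border cells and 16479 CPM in the other barcodes. Of the 70 cells 13 held at least 3 of its markers. Without the mixed barcodes *Hbb-bs* dropped from 29187 to 261 CPM at P14. This follows from the filter, since *Hbb-bs* is one of the markers that define a mixed barcode.

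Some markers of neighbouring mesenchyme were shared. The spiral fibrocyte list (*Coch*, *Otos*, *Car3*, *Slc4a11*) had at least 3 genes with a UMI in 156 (22.1%) and 310 (32.8%) of the P28 tympanic border cells and in 1 cell (1.43%) at P14. *Coch*, which encodes the secreted protein cochlin, was at 11259, 3406 and 4058 CPM, while *Car3*, a carbonic anhydrase of fibrocytes, was at 30, 72.8 and 98.2 CPM against 926, 464 and 421 CPM in the other barcodes. *Slc4a11*, a membrane transporter, was at 7.50, 125 and 127 CPM against 1.12, 6.73 and 16.3 CPM. *Otos*, which encodes the secreted protein otospiralin, was at 247, 244 and 585 CPM against 381, 963 and 1430 CPM. By the edgeR test described next, *Coch* and *Slc4a11* were higher than in the other barcodes and *Car3* and *Otos* lower, a call that *Otos* lost without P28 replicate 1 (edgeR adjusted p = 0.188) and without the block (0.153). Its log2 fold change of -1.17 was -0.30 (edgeR adjusted p = 0.503) when barcodes were thinned before selection, and -0.30 (0.479) without the other barcodes that held 1 or 2 of the 6 genes, so the lower level of *Otos* depended on how the cells were chosen.

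UMIs were next summed per library and compared between tympanic border cells and all other barcodes within the same limits, with the library as a block, with the quasi-likelihood test of edgeR and p-values adjusted over all genes by the Benjamini-Hochberg method (threshold 0.05). Of 14471 genes tested, 3017 were higher in tympanic border cells (20.8%) and 4048 were lower (28%). Such shares are the background for the gene lists below, since a mixture of all cochlear cells differs from a single cell class in many genes. With scaling to library size alone in place of TMM factors, 30.2% of the called genes were higher in place of 42.7%, and the median log2 fold change of all genes was -0.24 in place of -0.05. No called gene of the pathway lists below changed sign under that scaling. Leaving out either P28 library left fewer genes called, and the counts of a list that moved most with it, without the block or by DESeq2 are given beside that list.

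The 15 leading genes, ranked by fold change among those at 100 CPM or more, were *Notumos*, *Fn1*, *Emcn*, *Nnat*, *Epha3*, *Aox3*, *Ccn3*, *Gm17167*, *Ust*, *Fgfr2*, *Cav1*, *Bambi*, *Jcad*, *Tnfaip6* and *Nkd1*. A gene also had to pass the test and be higher in all 3 libraries, so separation of these genes follows largely from the choice. For this and later statements that values did not overlap, the share over all genes was not counted. *Fn1* encodes fibronectin, a matrix glycoprotein that binds integrins. It was at 652 CPM at P14 and at 1123 and 1250 CPM at P28, against 21.2, 44.5 and 62.4 CPM in the other barcodes. The lowest tympanic border cell value was above the highest of the other values, with a log2 fold change of 4.78 (SE 0.23, edgeR adjusted p = 2.7e-05). *Tnc*, which encodes the matrix protein tenascin C, was at 41.2, 83.7 and 82.8 CPM against 3.35, 3.22 and 5.59 CPM (log2 fold change 4.4, SE 0.23, edgeR adjusted p = 2.7e-05).

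*Notumos* is annotated as antisense to *Notum* and starts inside it, on the plus strand of chromosome 11 from 120659157 to 120661815. It was at 78.7, 116 and 109 CPM in tympanic border cells and at 0.558, 4.06 and 2.90 CPM elsewhere. Since *Notum* chose the cells and no source used here says whether the counting used strand, reads of the pair cannot be told apart and the level of *Notumos* is not independent of the choice. *Gm17167* is an annotated overlapping locus on chromosome 4, and its reads are uncertain for the same reason.

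**Figure D3:**
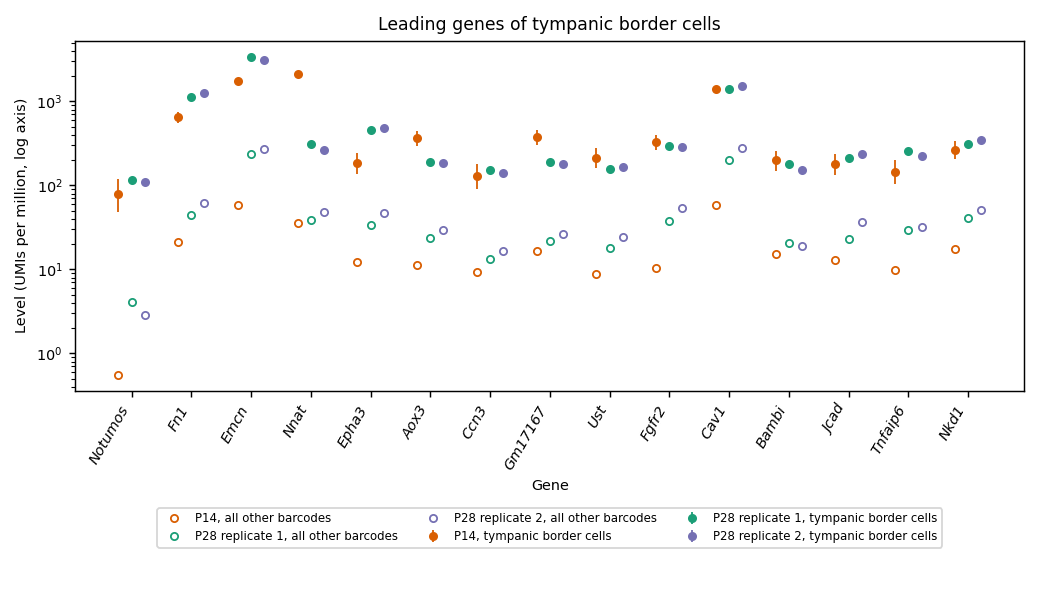
Levels of the 15 leading genes in CPM on a log axis, in tympanic border cells (filled, with 95% exact Poisson intervals) and in all other barcodes (open), by library. For every gene all 3 filled points lie above all 3 open points, which follows largely from how the genes were chosen. *Nnat* was at 2111, 310 and 266 CPM.

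Genes best known from endothelium were among the strongest. *Emcn* encodes endomucin, a sialoglycoprotein of vessel walls, and was at 1755, 3366 and 3080 CPM against 58.6, 234 and 269 CPM (log2 fold change 4.23, SE 0.29, edgeR adjusted p = 3.69e-05). *Flt1*, a receptor for vascular endothelial growth factor, was at 101, 133 and 152 CPM against 15.8, 13.9 and 17.3 CPM (3.26, SE 0.20, edgeR adjusted p = 3.25e-05). *Jcad*, a protein of endothelial cell junctions, was at 180, 213 and 239 CPM against 13.0, 22.8 and 36.5 CPM. The groups of values did not overlap for any of these genes. *Pecam1* and *Cldn5*, which define endothelium, were at or near 0 in the same cells, at 0, 1.37 and 1.07 CPM and at 0, 4.11 and 0 CPM. At least 3 markers of the endothelial list, which holds *Emcn*, were found in 2 tympanic border cells at P14 and in 68 (9.65%) and 78 (8.25%) at P28, against 1.07%, 0.789% and 0.588% of the other barcodes. In the barcodes with at least 3 markers of the endothelial list (39 and 36 at P28) *Emcn* was at 763 and 716 CPM, below its level in tympanic border cells. *Cdh5*, the endothelial cadherin, was at 30, 44.0 and 31.8 CPM against 29.7, 19.2 and 21.4 CPM, and its difference changed sign when tympanic border cells with at least 3 endothelial markers, *Cdh5* among them, were left out.

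Other leading genes encode membrane and signalling proteins. *Cav1*, the main protein of caveolae, was at 1395, 1413 and 1531 CPM against 58.5, 201 and 280 CPM. *Epha3*, an ephrin receptor, was at 184, 462 and 486 CPM against 12.4, 33.8 and 47.0 CPM. *Fgfr2*, a fibroblast growth factor receptor, was at 326, 291 and 284 CPM against 10.5, 37.2 and 53.9 CPM. *Cav1* and *Fgfr2* differed little between the libraries, while *Epha3* was higher in both P28 replicates than at P14. *Bambi*, a decoy receptor of the transforming growth factor family, was at 199, 181 and 152 CPM against 15.2, 20.6 and 19.0 CPM. *Nnat*, an imprinted gene that encodes neuronatin, ranged from 266 CPM in P28 replicate 2 to 2111 CPM at P14, and its fold change carried the largest error of the leading genes (log2 fold change 3.85, SE 0.58, edgeR adjusted p = 8.09e-04).

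The 5 lowest genes were *Snap25*, *Nefh*, *Slc17a7*, *Cplx1* and *Syp*, all neuronal. *Snap25*, a synaptic vesicle fusion protein, was at 0, 13.9 and 78.8 CPM against 22.1, 989 and 976 CPM (log2 fold change -4.61, SE 0.55, edgeR adjusted p = 2.54e-04). All 5 genes were at 0 CPM in tympanic border cells at P14, where *Nefh* was at 0.419 CPM in the other barcodes. Without the library as a block, 4 of the 5 did not pass, with an edgeR adjusted p of 0.0839 for *Snap25*.

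Wnt feedback targets were higher almost without exception. Of the 10 genes, 9 were higher in tympanic border cells than in all other barcodes and 1, *Ccnd1*, was lower, with a median log2 fold change of 2.28 against -0.05 over all genes tested. *Nkd1*, an antagonist that binds Dishevelled, was at 266, 314 and 350 CPM against 17.6, 40.7 and 51.5 CPM (log2 fold change 3.31, SE 0.24, edgeR adjusted p = 4.06e-05). *Lef1*, a factor that binds DNA together with beta-catenin, was at 150, 186 and 215 CPM against 19.1, 27.1 and 37.7 CPM (2.90, SE 0.18, edgeR adjusted p = 3.43e-05). Values of tympanic border cells and other barcodes did not overlap for either gene. *Axin2*, a scaffold of the complex that degrades beta-catenin, was at 90.0, 192 and 218 CPM against 30.6, 41.7 and 55.9 CPM (2.13, SE 0.22, edgeR adjusted p = 1.12e-04). *Sp5*, a zinc finger factor, was scarce, at 15.0, 37.4 and 29.3 CPM against 6.98, 4.4 and 3.60 CPM. *Tcf7*, *Nkd2*, *Tnfrsf19*, *Rnf43* and *Znrf3* made up the rest of the higher genes. *Notum* belongs to the same feedback loop but chose the cells and was left out of the list. Because it helped choose the cells, the other targets are not independent of the choice, here and in the contrasts below.

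The sequence before the start of 2 of these genes is shown because these genes were higher together and belong to a pathway whose TCF and LEF factors favour a known short motif. The 250 bases before each annotated start were searched for CTTTGA on both strands, which reads TCAAAG when it lies on the other strand, and no other motif was searched. RefSeq promoter entries (GRCm38.p6) were found for 9 of 13 genes, the list with *Notum*, *Apcdd1* and *Wif1*, and 3 of the 9 held the motif in at least 1 entry. By entry, 3 of 15 held it, against 13.8% of all 32851 promoters, and a match is not a site of binding. Capitals mark the motif in the *Sp5* promoter (chr2:70474673-70474922, plus strand), which holds it 204 and 104 bases before the start, and in the entry of a start within *Lef1* (chr3:131156044-131156293, plus strand), which holds it 180 and 120 bases before that start. The other 3 entries of *Lef1* lack these letters.
Sp5: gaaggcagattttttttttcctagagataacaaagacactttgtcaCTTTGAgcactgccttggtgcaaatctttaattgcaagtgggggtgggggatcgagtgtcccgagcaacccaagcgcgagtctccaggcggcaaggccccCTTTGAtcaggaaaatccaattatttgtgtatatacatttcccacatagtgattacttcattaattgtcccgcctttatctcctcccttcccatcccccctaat
Lef1: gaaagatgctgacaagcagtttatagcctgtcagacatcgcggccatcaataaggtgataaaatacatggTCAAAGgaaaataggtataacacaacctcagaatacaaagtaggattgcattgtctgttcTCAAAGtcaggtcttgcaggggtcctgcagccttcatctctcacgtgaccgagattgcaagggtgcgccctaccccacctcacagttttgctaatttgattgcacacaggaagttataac

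Most of the Wnt targets were also higher than in neighbouring mesenchymal classes. Among the other barcodes 3 neighbouring mesenchymal classes were chosen by their own markers, and their UMIs were summed and tested in the same way. Spiral fibrocytes held at least 3 of *Coch*, *Otos*, *Car3* and *Slc4a11* (20, 352 and 739 barcodes), the class named by *Abcc9* held at least 2 of the 4 genes *Abcc9*, *Moxd1*, *Cemip* and *Kcnj8* (72, 288 and 328), and collagen I fibroblasts held at least 4 of *Col1a1*, *Col1a2*, *Col3a1*, *Dcn*, *Lum* and *Dpt* (47, 96 and 122). Mixed barcodes were not removed from these classes. The outer hair cell list summed to 2913, 907 and 870 CPM in fibrocytes and 1658, 1504 and 762 CPM in the *Abcc9* class. It was at 179, 450 and 251 CPM in collagen I fibroblasts and 131, 452 and 255 CPM in tympanic border cells. Only 34, 157 and 171 barcodes of the *Abcc9* class held no UMI of the 6 selecting genes. The part of either in these contrasts was not tested. Of the Wnt feedback targets, 9 of 10 tested were higher in tympanic border cells than in spiral fibrocytes (median log2 fold change 1.96), 8 of 9 than in the *Abcc9* class (1.51) and 6 of 9 than in collagen I fibroblasts (0.95). *Axin2* at P14 was an exception in level, at 90.0 CPM in tympanic border cells, against 125 CPM in spiral fibrocytes and 89.5 CPM in collagen I fibroblasts. *Nkd1* did not overlap in any class, at 0, 39.7 and 58.8 CPM in fibrocytes, 28.9, 90.6 and 85.6 CPM in the *Abcc9* class and 34.4, 118 and 85.2 CPM in collagen I fibroblasts. Without P28 replicate 1 the count against the *Abcc9* class was 4 of 8, and without the block it was 5 of 9. Against collagen I fibroblasts it was 3 of 6 without either P28 replicate and 3 of 8 without the block. Calls against a neighbour that were lost when a P28 replicate was left out, with the direction kept, include those of *Fzd1*, *Lgr6*, *Crabp2*, *Gjb6*, *Fbln1* and *Col4a4* against the *Abcc9* class, of *Col27a1*, *Axin2* and *Nkd2* against collagen I fibroblasts and of *Emilin1* against fibrocytes. Among calls against all other barcodes the same held for *Znrf3*, *Rspo3*, *Sfrp2*, *Sfrp4*, *Sfrp5*, *Cyp26b1* and *Cdh5*. The background shares for these contrasts were 17.1% higher and 19.5% lower of 12028 genes for fibrocytes, 7.27% and 10.5% of 10224 for the *Abcc9* class, and 6.35% and 7.88% of 7372 for collagen I fibroblasts.

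**Figure D4:**
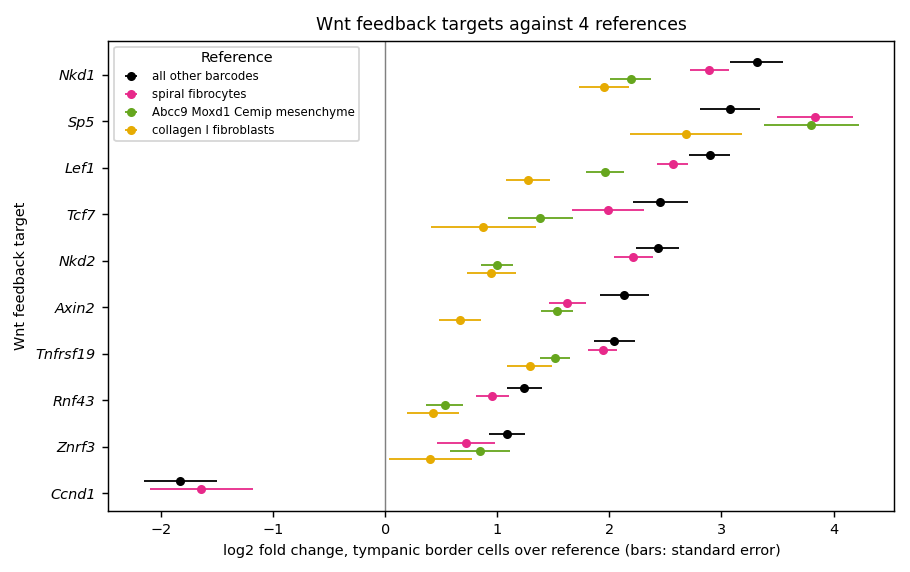
log2 fold change of the 10 Wnt feedback targets in tympanic border cells over 4 references, with standard errors from edgeR. All but *Ccnd1* lie to the right of 0, and *Nkd1* runs from 1.95 against collagen I fibroblasts to 3.31 against all other barcodes. *Ccnd1* was not tested against 2 of the references.

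Among Wnt receptors and R-spondins, 12 of 21 tested genes were higher and 5 were lower than in all other barcodes, with a median log2 fold change of 0.80. Without P28 replicate 1, 7 were higher and 3 lower. Against fibrocytes 9 of 20 were higher and 2 lower, with 5 higher without either P28 replicate. Against the *Abcc9* class 3 of 18 were higher and 4 lower, among them *Fzd7* and *Fzd8*. Against collagen I fibroblasts 3 of 14 were higher and 2 lower. The median log2 fold changes in these 3 contrasts were 0.42, 0.09 and 0.19. *Fzd10*, a Frizzled receptor, was at 112, 159 and 143 CPM against 13.3, 19.3 and 21.9 CPM (log2 fold change 3.10, SE 0.17, edgeR adjusted p = 2.7e-05). *Fzd1* was at 90.0, 224 and 208 CPM against 13.0, 31.8 and 37.6 CPM. *Fzd10*, *Fzd1* and *Lgr6*, a receptor for R-spondins, were also higher against each neighbouring class by the test, although *Fzd1* at P14 was at 124 CPM in the *Abcc9* class, whereas *Fzd9* was lower in each of these contrasts, at 0, 5.25 and 5.98 CPM in tympanic border cells and 68.0, 122 and 102 CPM in fibrocytes. The R-spondin gene *Rspo3* was lower against the other barcodes, fibrocytes and collagen I fibroblasts.

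Secreted inhibitors were split. *Wif1*, whose product binds Wnt proteins outside the cell, was at 41.2, 49.9 and 75.4 CPM against 2.93, 0.940 and 2.74 CPM (log2 fold change 5.13, SE 0.27, edgeR adjusted p = 2.7e-05). *Apcdd1*, a membrane inhibitor, was at 435, 164 and 153 CPM against 24.0, 23.4 and 29.6 CPM. Both were higher against every neighbouring class too. The secreted Frizzled-related family was divided, with *Sfrp2* and *Sfrp4* higher and *Sfrp1*, *Frzb* and *Sfrp5* lower than in the other barcodes, at 3.75, 15.5 and 14.7 CPM against 89.9, 80.6 and 71.7 CPM for *Sfrp1*. Of 11 tested inhibitors, 6 were higher and 5 were lower, and 3 and 3 passed without P28 replicate 1 or without the block. Of the Wnt ligands, *Wnt5a* and *Wnt5b* were higher and 4 of 9 tested were lower, although *Wnt5b* was at 0, 14.1 and 17.7 CPM against 1.81, 2.18 and 2.36 CPM and so was not above the other barcodes at P14. *Wnt5a* was at 360, 340 and 421 CPM, and the difference from fibrocytes (703, 400 and 432 CPM) did not pass the test (edgeR adjusted p = 0.361).

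Many matrix genes were lower in tympanic border cells than in their neighbours. Of the fibrillar and associated collagens, 5 of 19 tested were higher and 7 lower than in all other barcodes, but against the neighbours more were lower than higher, with 9 of 17 lower than in fibrocytes, 10 of 14 lower than in the *Abcc9* class and 12 of 14 lower than in collagen I fibroblasts. The median log2 fold changes were -0.60, -1.02 and -2.37. Collagen I fibroblasts were chosen by *Col1a1*, *Col1a2* and *Col3a1* among others, so lower collagens in that contrast follow in part from the choice. Against all other barcodes, 4 were higher and 3 lower without P28 replicate 1, 4 and 2 without P28 replicate 2, 2 and 2 without the block, and 3 and 5 by DESeq2. Against fibrocytes 4 of 13 were lower without P28 replicate 2 and 6 of 17 by DESeq2, and against the *Abcc9* class 5 were lower without either P28 replicate. Without the block 5 of 16, 1 of 14 and 5 of 12 were lower than in the 3 neighbours. *Col3a1* was at 169, 45.2 and 41.6 CPM in tympanic border cells and at 990, 266 and 235 CPM in the *Abcc9* class (log2 fold change -2.38, SE 0.12, edgeR adjusted p = 1.41e-06). Every tympanic border cell value lay below every value of that class, and without the block the edgeR adjusted p was 0.0774. *Col27a1*, a fibrillar collagen of cartilage, was at 180, 243 and 232 CPM against 56.1, 77.3 and 81.4 CPM in the other barcodes and was higher by the test against all 4 references.

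Among small leucine-rich proteoglycans, which bind collagen fibrils, more genes were lower than higher too. Against all other barcodes 3 of 10 tested (*Ecm2*, *Prelp* and *Bgn*) were higher and 5 lower. *Dcn*, which encodes decorin, was at 262, 246 and 220 CPM against 1337, 641 and 859 CPM in fibrocytes (log2 fold change -1.71, SE 0.17, edgeR adjusted p = 1.02e-06) and 6565, 3156 and 2461 CPM in collagen I fibroblasts, whose choice used it. Of 10 tested, 6 were lower than in fibrocytes and 8 than in the *Abcc9* class, where 4 of 9 were lower without the block. *Ecm2* and *Prelp* were higher than in fibrocytes, a call that both lost by DESeq2 and without either P28 replicate and that *Prelp* lost without the block. Under the study's limits on genes and UMIs, which left 18 fibrocytes at P14 and so took that library out of this contrast (the minimum was 20), the log2 fold change of *Prelp* was -0.0025 in place of 0.69 (edgeR adjusted p = 0.994) and that of *Ecm2* 0.29 in place of 1.04 (0.406). With P14 alone left out they were 0.73 and 1.11. *Prelp* was lower than in the *Abcc9* class and collagen I fibroblasts.

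Basement membrane genes showed a narrow pattern. *Col4a3* and *Col4a4*, partners in one type IV collagen network, were at 262, 15.1 and 17.5 CPM and at 259, 39.2 and 50.4 CPM, and were higher against the other barcodes, fibrocytes and collagen I fibroblasts, while *Col4a4* was lower than in the *Abcc9* class. *Ntn4*, which encodes the laminin-binding protein netrin 4, was at 172, 190 and 200 CPM and higher against all 4 references, with 22.7, 30.6 and 48.2 CPM in fibrocytes (log2 fold change 2.39, SE 0.15, edgeR adjusted p = 5.76e-09). Its values in tympanic border cells did not overlap those of fibrocytes. Over the list, 12 of 23 genes were higher and 10 lower than in all other barcodes, while 11 of 21 were lower than in the *Abcc9* class and only *Ntn4* was higher. Without P28 replicate 1 the counts were 7 higher and 7 lower against all other barcodes and 6 of 18 lower than in the *Abcc9* class, where *Ntn4* did not pass (edgeR adjusted p = 0.177). Without the block 7 and 8 passed against all other barcodes and 5 were lower than in the *Abcc9* class, where *Ntn4* did not pass (edgeR adjusted p = 0.141).

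Of the elastic fibre and EMILIN genes, 11 of 20 tested were higher and 5 lower than in all other barcodes. Without P28 replicate 1, 8 were higher and 1 lower, without P28 replicate 2, 9 and 2, and without the block, 7 and 1. Against fibrocytes 7 of 18 were higher and 1 lower, against the *Abcc9* class 3 of 18 were higher and 7 lower (median log2 fold change -0.55), and against collagen I fibroblasts 2 of 15 were higher and 5 lower. Without either P28 replicate, 4 were higher than in fibrocytes and 4 lower than in the *Abcc9* class. *Lox*, the enzyme that cross-links collagen and elastin, was at 2681, 350 and 438 CPM against 59.3, 91.0 and 110 CPM (log2 fold change 3.18, SE 0.63, edgeR adjusted p = 0.00344) and was higher against every neighbouring class. *Emilin1*, the relative of *Emilin2*, was at 56.2, 34.9 and 30.1 CPM and higher than in the other barcodes and fibrocytes, with *Mfap2*, *Ltbp4* and *Efemp1*. *Fbln1*, which encodes fibulin 1, was higher than in the other barcodes and the *Abcc9* class but its difference from fibrocytes did not pass the test (edgeR adjusted p = 0.685). Among matricellular and adhesive proteins *Fn1*, *Tnc* and *Ccn3* were higher against all 4 references, and no other gene of the list was higher against any, while 10 of 13 tested were lower than in the *Abcc9* class. There 5 of 10 were lower without P28 replicate 1, 6 of 10 without P28 replicate 2 and 4 of 10 without the block, and *Ccn3* lost its call without P28 replicate 1 (edgeR adjusted p = 0.125).

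Of the retinoid genes, 10 of 17 tested were higher than in all other barcodes and 4 lower. DESeq2 called 5 higher and 1 lower, as did edgeR without the block, and the counts were 4 and 3 without P28 replicate 1 and 6 and 3 without P28 replicate 2. *Stra6*, a retinol transporter, and *Cyp26b1*, which degrades retinoic acid, were called higher but were scarce. At P14 neither was above the other barcodes, and UMIs there were too few to place them below. *Stra6* was at 7.50, 31.5 and 29.3 CPM against 16.3, 5.49 and 4.46 CPM, and *Cyp26b1* at 0, 14.4 and 8.97 CPM against 1.12, 2.62 and 2.47 CPM. *Crabp2*, a retinoic acid-binding protein, was lower against all 4 references, at 3.75, 15.3 and 14.9 CPM against 102, 74.8 and 55.1 CPM. Against the collagen I fibroblasts 2 of 13 retinoid genes were lower and the other 11 did not pass.

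*Dmgdh* acts in the breakdown of choline and betaine, and other enzymes of that metabolism went in both directions against all other barcodes, with *Bhmt2*, *Bhmt*, *Sardh* and *Ahcy* higher and *Chdh*, *Gnmt* and *Mthfd2* lower. *Bhmt2*, a methyltransferase that makes methionine from homocysteine, was at 63.7, 86.7 and 88.6 CPM against 1.67, 7.07 and 9.24 CPM (log2 fold change 3.79, SE 0.23, edgeR adjusted p = 3.25e-05) and higher against every neighbouring class. *Bhmt*, which uses betaine and yields dimethylglycine, was at 30, 27.6 and 25 CPM against 8.09, 4.55 and 5.37 CPM. *Sardh*, the sarcosine dehydrogenase of the next step, was at 7.50, 15.1 and 19.0 CPM against 2.79, 5.24 and 7.09 CPM. *Chdh*, the choline dehydrogenase, was at 0, 2.51 and 2.99 CPM against 6.56, 13.0 and 14.2 CPM, and it and *Pipox* were lower than in fibrocytes. Over the whole list 4 of 14 tested genes were higher and 3 lower, where 20.8% and 28% of all genes were.

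In the families of *Otor* and *Kcnk3*, which chose the cells, no other gene tested was higher than in all other barcodes. *Mia*, a paralogue of *Otor*, was lower, at 22.5, 25.3 and 39.3 CPM against 3243, 214 and 178 CPM (log2 fold change -3.43, SE 0.76, edgeR adjusted p = 0.00571). The other 2 genes of that family tested, *Mia2* and *Mia3*, did not pass. Of 6 other two-pore potassium channels tested, 4 were lower by edgeR and the other 2 did not pass, and the remaining genes of that list were too scarce to test. Only 1 of 4 was lower without P28 replicate 1, 1 of 3 without P28 replicate 2 and 2 of 3 without the block. Of 6 connexins tested against all other barcodes 1, *Gjc1*, was higher and 3 were lower. *Gjc1* was also higher than in fibrocytes, a call lost by DESeq2 and without P28 replicate 2. At P14 its log2 ratio to the other barcodes was -1.52, against 1.68 and 1.45 at P28. *Gjb2* and *Gjb6*, which form the gap junctions of the fibrocyte and epithelial networks, were lower against all 4 references. *Gjb2* was at 7.50, 109 and 99.9 CPM in tympanic border cells and at 2562, 2732 and 1990 CPM in fibrocytes (log2 fold change -4.85, SE 0.36, edgeR adjusted p = 3.23e-08), with no overlap.

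Mesenchymal transcription factors were higher in 13 of 18 tested genes and lower in 4, with a median log2 fold change of 1.46. The lower genes numbered 2 without either P28 replicate, without the block and by DESeq2. Fewer were higher than in the neighbours, with 9 of 18 against fibrocytes, 5 of 16 against the *Abcc9* class and 1 of 15 against collagen I fibroblasts (median log2 fold changes 0.45, 0.26 and 0.14). Of all genes tested, 17.1%, 7.27% and 6.35% were higher in these contrasts, so 1 of 15 was near the background. Without P28 replicate 1 the counts were 4 of 16, 0 of 14 and 0 of 13 by edgeR, with 7 and 3 of the last 2 sets at an unadjusted p under 0.05 in either direction. *Pou3f4*, a factor of otic mesenchyme linked to deafness, was at 401, 433 and 452 CPM against 51.8, 100.1 and 135 CPM (2.39, SE 0.24, edgeR adjusted p = 1.07e-04). It was also higher against each neighbouring class, by 0.55 to 0.65 on the log2 scale, although fibrocytes were at 453 CPM at P14, and it lost each of these 3 calls when a P28 replicate was left out. *Snai2*, *Twist1* and *Foxc2* were higher than in the other barcodes, and *Snai2* was at 52.5, 39.0 and 40.6 CPM against 2.37, 5.94 and 8.22 CPM. *Tbx18*, at 82.5, 398 and 393 CPM, did not pass the test against any neighbouring class (edgeR adjusted p = 0.903, 0.597 and 0.818). Its log2 fold change against fibrocytes was -0.04, 0.19 with P14 left out and 0.37 (edgeR adjusted p = 0.0159) when the study's limits on genes and UMIs, which also took P14 out of that contrast, were applied. Of 12 mesothelial markers only 4 were abundant enough to test, and *Krt8*, *Krt18* and *Krt19* were lower and *Gpm6a* higher, a call that *Gpm6a* lost without either P28 replicate and without the block. Against fibrocytes *Gpm6a* was lower (log2 fold change -1.04, edgeR adjusted p = 4.6e-06).

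The genes that most separated tympanic border cells from each neighbour are given next, in 3 contrasts that use the same tympanic border cell sums. *Notumos* was among the 5 leading genes in all 3 contrasts, and *Fn1*, *Flt1*, *Dapl1* and *Anks1b* each in 2 of them. *Anks1b*, an ankyrin repeat protein, was at 52.5, 284 and 301 CPM against 22.7, 21.4 and 33.7 CPM in fibrocytes (log2 fold change 3.43, SE 0.16, edgeR adjusted p = 4.64e-10). *Fxyd2*, a regulator of the sodium pump, led the genes that were lower than in fibrocytes, at 7.50, 92.1 and 37.6 CPM against 533, 2897 and 2413 CPM. *Fst*, an activin antagonist, led against the *Abcc9* class, at 0, 9.12 and 9.61 CPM against 194, 413 and 467 CPM (-5.45, SE 0.18, edgeR adjusted p = 9.98e-08). *Ibsp*, a bone sialoprotein, and *Dmp1* and *Phex*, mineralisation genes, led against collagen I fibroblasts, with *Ibsp* at 96.4, 2.37 and 1279 CPM in that class, so that 1 library held most of it.

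The maturation of tympanic border cells was described between the P14 library and both P28 libraries, with no test, since P14 has 1 library. A gene counted as past the limit when its CPM plus 5 differed by at least 2-fold from each P28 replicate, its 95% exact Poisson interval overlapped neither, and its level reached 50 CPM at the higher age. Of 3709 genes at that level, 208 were higher at P14 (5.61%) and 266 higher at P28 (7.17%). With haemoglobin, mitochondrial and ribosomal protein genes left out before scaling, 196 and 408 of 4730 genes were. Between the P28 replicates 26 of 3529 genes (0.737%) passed the same fold. The other barcodes gave 239 and 402 of 4207 genes. Of the genes of tympanic border cells past the limit, 60 of 208 and 81 of 266 also passed 2-fold in the same direction in the other barcodes, and 157 of 208 and 230 of 266 lay in the same direction there at whatever fold. Haemoglobin genes took 5.33% of the tympanic border cell UMIs at P14 and 0.564% and 0.135% at P28, *Malat1* took a median of 9.24% against 2.99% and 3.28%, and ribosomal protein genes took 13.2% against 21.7% and 22.2%. The part of these shares and of sex in the differences was not tested.

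Collagens were higher at P14. Of 10 fibrillar and associated collagens at 50 CPM or more, 7 were higher at P14 and 0 at P28. *Col1a2*, a chain of type I collagen, was at 3089 CPM at P14 and at 334 and 360 CPM at P28, and 67 of the 70 cells at P14 held a UMI of it. *Col11a1* was at 1230, 44.5 and 54.7 CPM and *Col9a1* at 386, 11.6 and 15.4 CPM, both chains of cartilage-type fibrils. All 3 collagens were far lower in both P28 replicates, which lay close together. *Col9a1* had a like difference in the other barcodes, at 436, 16.4 and 15.2 CPM, whereas *Col1a2* was at 532, 173 and 362 CPM there. The summed collagen list was at 6261, 924 and 1010 CPM in tympanic border cells and at 7719, 1189 and 1789 CPM in fibrocytes. It was at 11508, 1729 and 2568 CPM in the *Abcc9* class and at 16959, 2602 and 15303 CPM in collagen I fibroblasts. The sum was thus also highest at P14 in each neighbouring class. Of 10 basement membrane genes at that level, *Col4a3*, *Col4a4*, *Lama2*, *Lamc1* and *Col15a1* were higher at P14 and 0 at P28. *Lamc1*, a laminin chain, was at 577, 116 and 103 CPM, and *Lox* at 2681, 350 and 438 CPM. The summed basement membrane list was at 2118, 914 and 927 CPM, and it was likewise highest at P14 in each neighbouring class.

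*Serpinh1*, *Plod2* and *Hspa5* are given as 3 single genes, chosen after their values were seen. *Serpinh1*, the collagen chaperone HSP47, was at 532, 221 and 234 CPM. *Plod2*, a lysyl hydroxylase, was at 701, 184 and 209 CPM, and *Hspa5*, the general chaperone BiP, at 615, 159 and 151 CPM. In the other barcodes *Serpinh1* was at 148, 89.4 and 114 CPM and *Hspa5* at 702, 233 and 225 CPM, so *Hspa5* had a similar difference there.

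The genes with the largest folds at P14 were *Xist*, *Hist1h2ap*, *Hist1h2ae*, *Mgp* and *Hist1h1b*. Few cells carried most of them. *Hist1h2ap*, a histone gene of dividing cells, was found in 3 of the 70 cells, 1 of which held 60.7% of its UMIs, and was at 0 CPM without the mixed barcodes. *Mki67*, a marker of proliferation, was found in 2 of the 70 cells and was also at 0 CPM without them. *Mgp*, the matrix Gla protein that inhibits calcification, was at 825, 16.0 and 20.3 CPM, was found in 20 cells with 41.4% of its UMIs in 1 of them, and stayed at 866 CPM without the mixed barcodes.

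Immediate early genes were higher at P28. Of 9 genes of the immediate early and heat shock list at 50 CPM or more, 7 were higher at P28 and 0 at P14. *Egr1*, a zinc finger factor induced within minutes of stimulation, was at 11.2 CPM at P14 and at 216 and 194 CPM at P28. *Fos* was at 7.50, 211 and 105 CPM and *Junb* at 52.5, 428 and 244 CPM, subunits of the factor AP-1. P28 replicate 1 was the higher of the P28 replicates for each of these genes. In the other barcodes *Egr1* was at 33.8, 68.1 and 55.8 CPM, and *Fos* at 10.0, 49.8 and 29.7 CPM. Against the other barcodes, 8 of 15 genes of this list were higher in tympanic border cells with the library as a block and 1, *Hspa1b*, was lower. With DESeq2 6 were higher, and 5 were higher without either P28 replicate. Without the block edgeR called 0 of them, with 7 at an unadjusted p under 0.05.

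**Figure D5:**
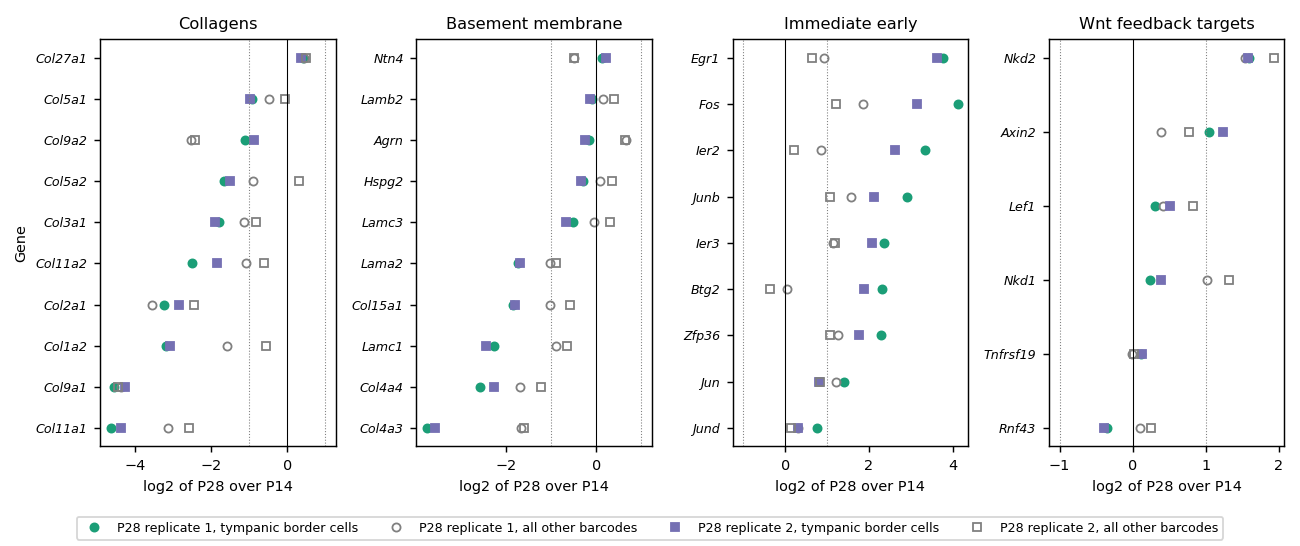
log2 of the P28 level over the P14 level, with 5 CPM added, for the genes of 4 lists that reached 50 CPM in tympanic border cells (coloured) and for the same genes in all other barcodes (grey), by P28 replicate. Dotted lines mark 2-fold. In tympanic border cells 7 of the 10 collagens passed the limit on the P14 side and 7 of the 9 immediate early and heat shock genes on the P28 side.

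The 5 largest folds at P28 were *Ptgds*, *Tgm2*, *Ifi27l2a*, *Gfra4* and *Bst2*. *Tgm2*, a transglutaminase that cross-links matrix proteins, was at 0 CPM at P14, where 0 of 266730 UMIs allow up to 13.8 CPM, and at 92.6 and 83.3 CPM at P28. It was found in 239 and 278 of the P28 cells, with at most 1.72% of its UMIs in one cell. *Gfra4*, a receptor subunit for persephin, was at 0, 83.5 and 77.5 CPM. *Ptgds*, prostaglandin D synthase, was at 3.75, 575 and 1103 CPM, with 378, 2149 and 3983 CPM in the other barcodes and 2346, 14343 and 12856 CPM in fibrocytes. The part of RNA from those cells in its level was not tested. *Ifi27l2a* and *Bst2*, interferon-stimulated genes, were at 0, 88.7 and 73.2 CPM and at 3.75, 213 and 75.6 CPM.

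Several Wnt targets stayed within the limit between the ages. *Nkd1* (266, 314 and 350 CPM), *Lef1* (150, 186 and 215 CPM) and *Tnfrsf19* (195, 212 and 214 CPM) were among them. *Axin2* was higher at P28, at 90.0, 192 and 218 CPM, as was *Nkd2*, at 48.7, 157 and 155 CPM. *Fzd1*, *Fzd7* and *Lgr6* were also higher at P28, and *Apcdd1* was higher at P14. The small proteoglycans *Bgn*, *Ogn*, *Prelp* and *Epyc* were higher at P28, and *Chad* at P14. *Bgn*, which encodes biglycan, was at 22.5, 133 and 122 CPM. *Gjb2* and *Gjb6* were higher at P28, with *Gjb6* at 3.75, 52.9 and 67.9 CPM, and *Gjb2* was found in 2 cells at P14 and in 109 and 164 at P28.

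Among the tympanic border cells themselves, unevenness was measured as the ratio of variance to mean after thinning to 1000 UMIs, for which counts that vary by chance alone give a ratio near 1. The median gene had a ratio of 1.03 in both P28 libraries. Among the 10 most uneven genes were *Hbb-bs*, *Hba-a1*, *Hbb-bt*, *Hba-a2*, *Ptgds*, *Ocm*, *Otos*, *Pcp4* and *S100a1*. These are haemoglobins and genes abundant in fibrocytes, hair cells or neurons. *Ptgds* had ratios of 29.8 and 10.5 and was found in 25.1% and 50.2% of the thinned P28 cells, and *Otos* had ratios of 17.5 and 8.55. *Ocm*, the calcium buffer of outer hair cells, was found in 4.38% and 1.87% of them.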

How the data were processed

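The authors deposited matrices of UMI counts, not normalized, 1 for each pool of dissociated cochleae. The file headers name Cell Ranger 5.0.1, whereas the submitters' processing notes list Cell Ranger 6.0.1 and the build mm10. Of 32285 features, 32235 identifiers occur in GENCODE M21, from which coordinates were taken. The libraries held 2513, 11948 and 18196 barcodes, to which the study's lower limit of 200 genes and its mitochondrial limit of 15% were applied, with 6000 as the upper limit on genes in place of 3000 and without the study's limit of 15000 UMIs. The members and gene lists were chosen with earlier results of these data known, so the lists are no independent support.

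From the counts, UMIs were summed per class and library. Classes were compared with edgeR 4.0.16 in R 4.3.3 (quasi-likelihood, TMM, filterByExpr, library as block, Benjamini-Hochberg at 0.05), leaving out the genes that chose the classes. Both sums of a library come from the same mice, so the pairing is physical. The p-values rest on 3 pairs and measure the spread between these libraries. The step was tested on simulated data and recovered 97.5% of 200 genes changed 4-fold among 13618 genes for the comparison with all other barcodes. It made 9 false calls there. For fibrocytes, the *Abcc9* class and collagen I fibroblasts it recovered 95%, 96% and 94%, with 7, 6 and 7 false calls. The simulated libraries shared a mean profile and a dispersion and differed only in size. Fewer genes were changed than were called in the data. Recovery with differences between libraries or ages was not tested. Age was described without a test on CPM, with intervals from exact Poisson limits. Unevenness was measured after thinning to 1000 UMIs. No doublet caller was run. Tympanic border cells with at least 3 markers of another type were left out as an alternative. The other alternatives were DESeq2 1.42.0, no block, other filters, limits, thresholds and scalings, and leaving out each library.

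Named genes were the 6 that chose the cells, the 15 highest and 5 lowest against all other barcodes, the 5 leading genes in each direction against each neighbouring class and between ages, the 10 most uneven genes and members of 19 pathway and 18 cell type lists. Some genes that this rule names are not reported here. Reads of near-identical or overlapping genes can be split and are uncertain.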

Additional observations from a re-analysis of the deposited data

Results flagged for a closer look

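Among 446 genes of the naming rule, 51 had a ratio on opposite sides of 0 at the 2 ages, and 14 of them had exact Poisson intervals apart in every library. The share over all genes was not counted. The rule names some genes for their fold between the ages or their unevenness, so these counts are no result about the named genes. For these 14 the ratio of tympanic border cells to the other barcodes lay on one side of 0 (log2, 5 CPM added) at P14 and on the other in both P28 replicates. *Egr1* and *Fos* changed side too, but their intervals overlapped at P14. These differences between the ages were not tested. The haemoglobin genes and the haem synthesis gene were higher at P14 and lower at P28. The log2 ratios were 1.73, -1.19 and -3.85 for *Hbb-bs* (P14, P28 replicate 1 and replicate 2), 1.80, -1.12 and -3.91 for *Hba-a1*, and 1.32, -1.04 and -4.19 for *Hbb-bt*. They were 1.75, -1.07 and -3.85 for *Hba-a2* and 1.12, -0.77 and -2.25 for *Alas2*. The P14 values rest on mixed barcodes. Without them the P14 ratio was -5.05 for *Hbb-bs* and -2.81 for *Alas2*, and it was below 0 for all 5 genes. These 5 genes are the erythroid list that helps define the mixed barcodes, and only the tympanic border cells were filtered. The lower ratio therefore follows from the filter and is no separate test.

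Histone and cell cycle genes among the 14 had the same order. The ratios were 0.86, -0.43 and -0.74 for *Hist1h2ae*, 0.94, -0.74 and -0.71 for *Mki67*, and 1.15, -0.44 and -0.44 for *Rrm2*. *Mki67* and *Rrm2* each had UMIs in 2 of the 70 cells at P14 and were at 0 CPM there without the mixed barcodes, and the ratio of *Hist1h2ae* was then -3.39. The other barcodes were not filtered in this way, so that ratio does not compare like with like. The whole cell cycle list was lower in tympanic border cells in every library, with a summed level of 255, 73.4 and 76.7 CPM against 288, 89.0 and 96.1 CPM. Matrix genes gave 0.88, -0.62 and -0.91 for *Col11a1*, 2.74, -0.10 and -0.11 for *Sparcl1*, and 2.89, -0.68 and -0.66 for *Chad*, which was at 112 CPM at P14 and at 0.228 and 0.427 CPM at P28.

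Stimulus-induced genes took the opposite order. The ratios were -1.65, 0.82 and 0.78 for *Ier2*, -1.35, 0.92 and 0.89 for *Btg2*, and -2.50, 0.38 and 0.65 for *Ccn1*, which was at 0 CPM in tympanic border cells at P14. For these 3 genes and the 3 matrix genes the ratio kept its sign in every library without the mixed barcodes.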

How the results depend on the processing

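For the 20 genes that led or trailed against all other barcodes, 330 of 334 pairs of a gene and an alternative kept direction and call, 4 lost the call and 0 reversed. Of 261 called genes of the lists, 16 changed sign in at least 1 alternative, 11 of them when 2 of the 6 selecting genes sufficed, among them *Col3a1* and *Dcn*. Against all other barcodes, leaving out 1 library gave 933 to 4196 higher and 1949 to 5017 lower genes, and without the library block (no replicate block) the counts were 1355 and 2044. DESeq2 gave 1761 higher. With at least 10 UMIs in every sum, 983 and 982 of 4217 genes tested were called. Against spiral fibrocytes, leaving out 1 library gave 595 to 2458 higher and 882 to 2760 lower, no block 1083 higher, DESeq2 819 and 1251, and at least 10 UMIs 391 and 523. Against the *Abcc9* class the same settings gave 178 to 1176 and 292 to 1617, 193 and 420, 335 and 603, and 380 and 391, and the study's limits on genes and UMIs gave 446 and 505. Against collagen I fibroblasts they gave 181 to 554 and 252 to 715, 157 and 250, 222 and 340, 206 and 252, and 207 and 269. Of the age counts, 408 genes in place of 266 were higher at P28 once haemoglobin, mitochondrial and ribosomal protein genes had been left out, and the cause was not tested. Of the Wnt feedback targets, 8 or 9 of 10 were higher than in all other barcodes in every setting that tested all 10. The share of tympanic border cells was 8.66%, 21.4% and 22.0% with 2 of the genes required and 2.89%, 6.95% and 7.06% with 4. At P28 it was 10.7% and 12.0% under the study's limits, 8.83% and 9.07% with up to 30% mitochondrial UMIs, and 7.10% and 7.31% when barcodes were first thinned. At P14 these last settings held 62, 75 and 47 tympanic border cells beside 1338, 1930 and 1252 other barcodes. The P14 sums limit precision, at 266730 UMIs in tympanic border cells, 242524 in the *Abcc9* class, 145171 in collagen I fibroblasts and 88226 in the 20 fibrocytes.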

Other observations

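Ribosomal protein genes were a group that the comparisons above did not describe. Of 95 tested, 77 were higher in tympanic border cells than in all other barcodes and 4 were lower, with a median log2 fold change of 0.79. They took 13.2% of the UMIs of tympanic border cells at P14 and 21.7% and 22.2% at P28, against 9.63%, 12.6% and 13.0% in the other barcodes. The shares were 9.58%, 10.3% and 11.6% in spiral fibrocytes, 8.80%, 15.6% and 14.6% in the *Abcc9* class and 8.23%, 17.0% and 15.0% in collagen I fibroblasts, so at P28 the last 2 classes were also above the other barcodes. Mitochondrial genes took a smaller share of the UMIs of tympanic border cells than of the other barcodes in every library, at 4.36%, 6.13% and 6.31% against 5.66%, 8.68% and 9.04%.

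Among the cell cycle genes, 1 of 14 tested (*Mcm6*) was higher in tympanic border cells and 5 were lower. Without P28 replicate 1 the counts were 0 and 1, without P28 replicate 2 and by DESeq2 0 and 3, without the block 0 and 0 with edgeR (1 at an unadjusted p under 0.05), and without P14 3 and 7. *Mcm6* also lost its call with scaling to library size alone (edgeR adjusted p = 0.0846) and under the study's limits on genes and UMIs (0.179). Of the ligands and antagonists of the bone morphogenetic protein and transforming growth factor families, 5 of 19 were higher and 10 lower, and 3 were higher by DESeq2, without the block or without P28 replicate 1. *Bmp2* was at 0, 56.8 and 60.6 CPM against 4.61, 13.8 and 19.6 CPM in the other barcodes (log2 fold change 1.99, SE 0.23, edgeR adjusted p = 1.93e-04), a call lost by DESeq2 (adjusted p = 0.0873) and without the block (0.096).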
